A study of Homo sapiens with 54 samples.

Results

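The G2/M and mitosis genes are a list of 36 genes that carry a cell from the end of DNA replication through division. They were found by symbol in the platform annotation of an Affymetrix human genome array, and all 36 were measured, of 11963 genes with a probe set of their own, by 59 of 22215 probe sets. The cells were HT-29, an established human colon adenocarcinoma line, and every culture, controls included, had first received 200 U/ml interferon-gamma for 24 h. Interferon-gamma is a T cell cytokine that makes these cells more sensitive to tumour necrosis factor (TNF), an inflammatory cytokine that can kill them. Epidermal growth factor (EGF) and insulin are growth and survival factors. The study asked how TNF, EGF and insulin act in pairs. Of its 9 treatments 1 added nothing (untreated), 2 added TNF alone (5 or 100 ng/ml), 1 added EGF alone (100 ng/ml) and 1 insulin alone (500 ng/ml). Another 2 combined the high TNF dose with EGF or insulin at those doses, and 2 combined the low TNF dose with low EGF (1 ng/ml) or low insulin (5 ng/ml). Each was sampled at 4, 8 and 16 h in biological duplicate, which gave 54 arrays in 27 groups of 2. No group without interferon-gamma was analysed here, so every value describes primed cells.

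Entry into mitosis is driven by CDK1 with cyclins A and B, switched on by CDC25 phosphatases and supported by the PLK1 and Aurora kinases. Kinetochore proteins attach chromosomes to the spindle, and the spindle checkpoint holds the cell until attachment is complete. The anaphase-promoting complex then destroys securin and cyclin B, after which kinesins and midzone proteins part the daughter cells. These genes are transcribed late in the cycle, under FOXM1, the MuvB complexes and NF-Y, and are silent in resting cells.

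Promoters are shown for 6 of the 30 genes that had one in the reference table, the 4 with the most negative and the 2 with the smallest differences under TNF at 100 ng/ml alone, to set the sequences beside the responses. Each is the 250 bases before the annotated RefSeq start in GRCh38.p14, read 5′ to 3′ along the gene. They lie at chr10:92592880-92593129 on the plus strand for KIF11, chr10:56361260-56361509 on the minus strand for ZWINT and chr15:69414099-69414348 on the plus strand for KIF23. The others lie on the plus strand, at chr2:26785806-26786055 for CENPA, chr1:43358731-43358980 for CDC20 and chr5:160421605-160421854 for PTTG1. Capitals mark TTTGAA or TTCGAA, the core of the cell cycle genes homology region that MuvB complexes bind, and CCAAT, the core of the NF-Y site, on either strand.
KIF11: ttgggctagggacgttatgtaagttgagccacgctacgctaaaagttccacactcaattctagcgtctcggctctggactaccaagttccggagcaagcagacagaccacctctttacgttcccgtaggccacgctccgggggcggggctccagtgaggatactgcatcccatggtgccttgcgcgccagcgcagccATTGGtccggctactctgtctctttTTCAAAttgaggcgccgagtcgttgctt
ZWINT: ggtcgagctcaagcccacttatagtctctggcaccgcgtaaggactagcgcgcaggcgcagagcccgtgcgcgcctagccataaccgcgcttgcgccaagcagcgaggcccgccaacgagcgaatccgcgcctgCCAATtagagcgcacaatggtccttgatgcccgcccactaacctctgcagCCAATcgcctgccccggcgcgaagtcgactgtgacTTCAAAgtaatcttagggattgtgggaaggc
KIF23: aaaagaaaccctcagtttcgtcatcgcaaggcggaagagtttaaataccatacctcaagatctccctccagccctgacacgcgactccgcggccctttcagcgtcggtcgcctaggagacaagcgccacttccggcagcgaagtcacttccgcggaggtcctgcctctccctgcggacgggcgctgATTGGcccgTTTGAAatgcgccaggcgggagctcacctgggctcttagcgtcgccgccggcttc
CENPA: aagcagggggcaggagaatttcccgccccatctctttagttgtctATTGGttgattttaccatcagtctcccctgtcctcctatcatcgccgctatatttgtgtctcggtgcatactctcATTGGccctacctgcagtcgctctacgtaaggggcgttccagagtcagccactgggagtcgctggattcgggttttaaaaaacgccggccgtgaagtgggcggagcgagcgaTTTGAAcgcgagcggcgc
CDC20: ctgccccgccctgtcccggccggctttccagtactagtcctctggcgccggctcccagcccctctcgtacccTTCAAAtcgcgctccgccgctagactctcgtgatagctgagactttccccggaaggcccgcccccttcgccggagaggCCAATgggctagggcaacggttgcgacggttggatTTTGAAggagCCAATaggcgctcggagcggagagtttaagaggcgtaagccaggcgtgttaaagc
PTTG1: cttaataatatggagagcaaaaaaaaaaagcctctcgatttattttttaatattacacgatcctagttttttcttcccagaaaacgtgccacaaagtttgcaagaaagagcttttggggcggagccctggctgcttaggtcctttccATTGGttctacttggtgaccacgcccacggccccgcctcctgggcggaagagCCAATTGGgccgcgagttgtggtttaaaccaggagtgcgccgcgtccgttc
In KIF11 the TTTGAA match starts at position -28 from the start and the CCAAT match at -53. In ZWINT they start at -31 and, for the nearer CCAAT, -66. In KIF23 the 2 lie close together, at -55 and -64. In CDC20, TTTGAA occurred at -65 and -178. PTTG1 held no TTTGAA or TTCGAA in this window, and its CCAAT matches at -51 and -48 overlap on opposite strands.

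The reference table held 30 of the 36 promoters (not AURKA, BIRC5, FOXM1, TPX2, TTK or UBE2C). In the window from 250 bases before to 50 after the start, TTTGAA or TTCGAA occurred in 20 of them (66.7%) and in 13.5% of all 15842 protein-coding promoters. CCAAT occurred in 25 (83.3%), against 36.4% of all promoters. Both occurred in 19 (63.3%), against 5.57%. Among 36 promoters of G1/S and DNA replication genes TTTGAA or TTCGAA occurred in 2 (5.56%), and among 53 promoters of other G2/M genes in 36 (67.9%). CDC25B, CDC25C, CENPE and KIF2C held neither motif. The median change under TNF at 100 ng/ml alone was -0.36 (log2) for the 20 genes with TTTGAA or TTCGAA, from -0.72 to -0.01. It was -0.18 for the 10 without, from -0.46 to 0.14, which is a description of overlapping ranges.

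The values are the authors' linear MAS5 signals, in arbitrary units of brightness. Array medians lay between 111 and 168, and log2 signals of duplicate arrays correlated at 0.945 to 0.977. All 36 genes exceeded the level used as filter, a signal of 138.9, in all 27 groups. Differences are on the log2(signal + 12.49) scale with their standard error (SE), and a gene was called when its limma adjusted p over 13422 probe sets was under 0.05. Each comparison was tested over 4, 8 and 16 h together and is given as the mean difference over these times. Colon epithelial markers were present (12 of 14 above the filter, summed signal 63737 to 104060 per array). Of the markers of other types 4 of 10 for fibroblasts (671 to 1370), 6 of 11 for leukocytes (CD14, CD3E, CD79A, ITGAM, LYZ and MS4A1, 4963 to 10810) and 1 of 5 for endothelium (132 to 489) were above the filter in at least 1 group. In the 9 arrays of the 8 h replicate 2 set the ACTB 3′ to 5′ ratio, a measure of RNA integrity, had a median log2 of 0.32, against -0.04 in the other 45 arrays. Among those 45 the 16 h replicate 2 arrays ran from 0.02 to 0.43, and the 4 h arrays from -0.47 to 0.33. The 16 h replicate 1 array with TNF at 100 ng/ml and insulin had 0.63.

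Signals of the whole list were lowest at 16 h with TNF. The median over the 36 genes, each relative to its own mean over all arrays, was -0.73 and -0.63 in the 16 h duplicates with TNF at 100 ng/ml and -0.79 and -0.83 with EGF added. With insulin added to the same TNF dose it was -0.43 and -0.58. With TNF at 5 ng/ml it was -0.44 and -0.49, and in untreated 16 h cells -0.19 and -0.17. All TNF cultures at 16 h thus lay below the untreated ones, and those with EGF alone (0.00 and -0.09) or insulin alone (0.00 and 0.05) lay above them. In RNA taken from a whole culture, fewer dividing cells and less mitotic RNA per cell cannot be told apart.

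**Figure D1:**
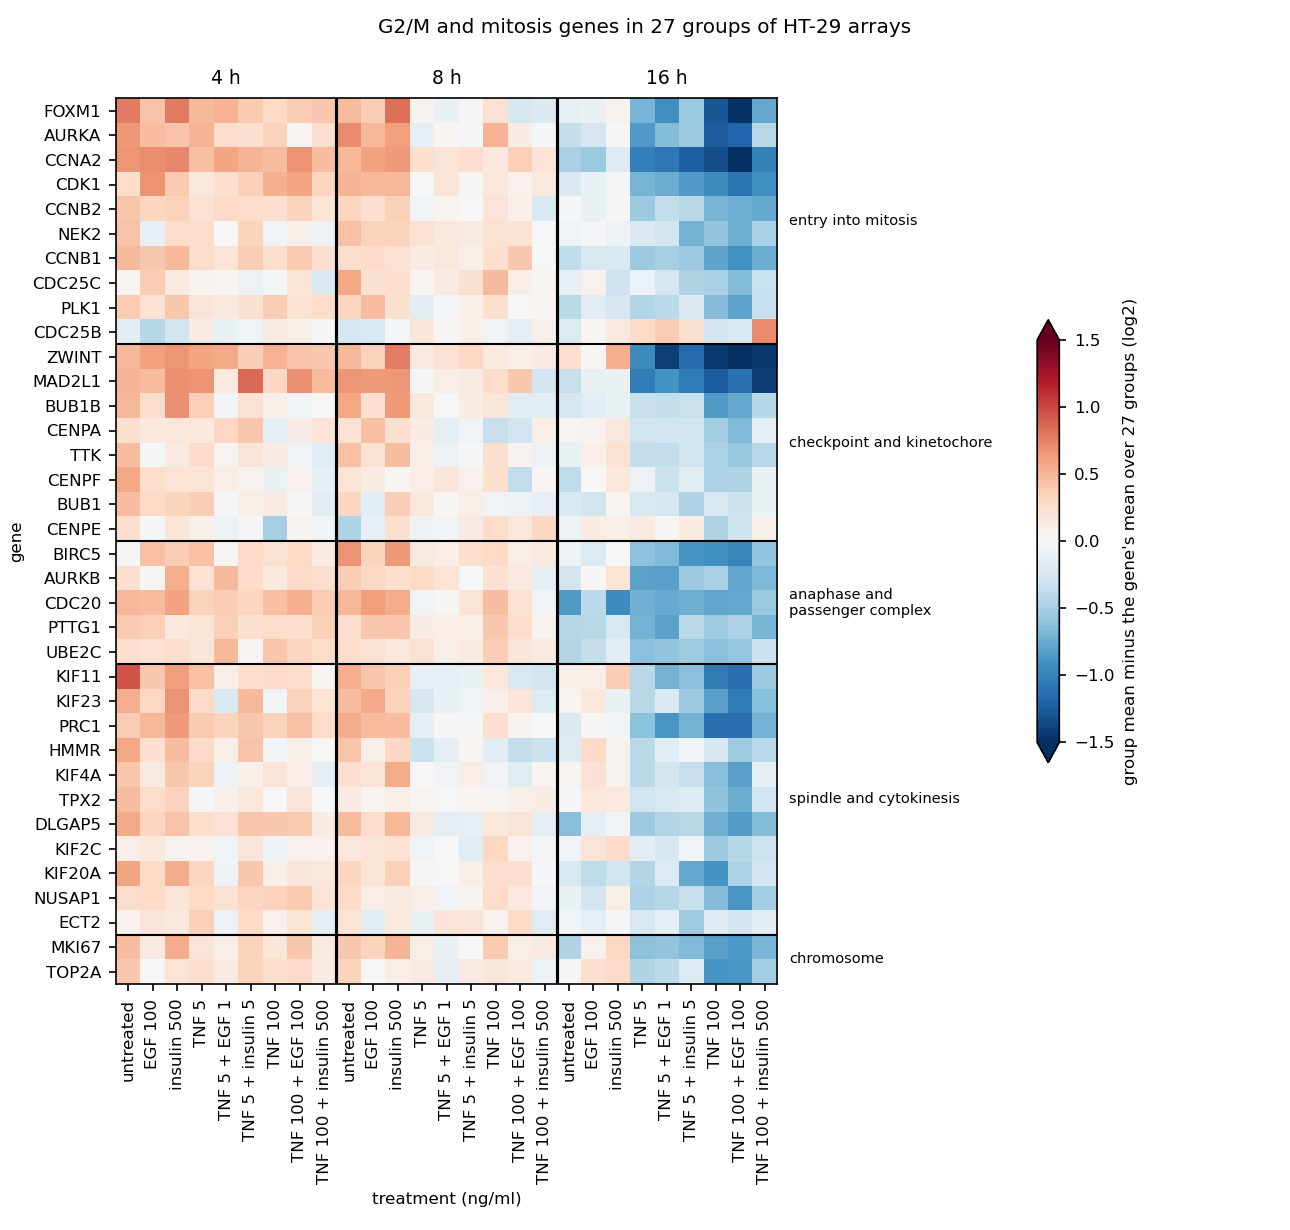
Mean log2 signal of the 36 genes (vertical, grouped by role) in the 27 groups (horizontal, 2 arrays each), each minus the gene's mean over the groups, with colours saturating at 1.5 units either way. The 16 h columns with TNF at 100 ng/ml are the darkest on the low side for most genes, while CDC25B and CENPE do not follow.

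The effect of TNF at 100 ng/ml was measured most precisely by comparing the 18 arrays with this dose and the 18 without TNF, over 3 backgrounds (no other factor, EGF or insulin at the high dose). With TNF present 29 of the 36 genes fell and 1, CDC25B, rose, beside 24.7% of all probe sets called lower and 12.6% called higher. The median difference was -0.33, against -0.07 over all probe sets. From 4 to 8 to 16 h it went from -0.15 to -0.28 to -0.56. Tested at single times, 6 genes were lower at 4 h, 14 at 8 h and 27 at 16 h, beside 7.2%, 12.8% and 18.6% of all probe sets. The largest falls were in ZWINT, KIF11, FOXM1, MAD2L1, KIF23 and BUB1B. Split by background, the median difference at 16 h was -0.54 without another factor, -0.71 with EGF and -0.49 with insulin. These are the same arrays as in the joint 16 h comparison, so the split is a description and not a repeat of it.

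**Figure D2:**
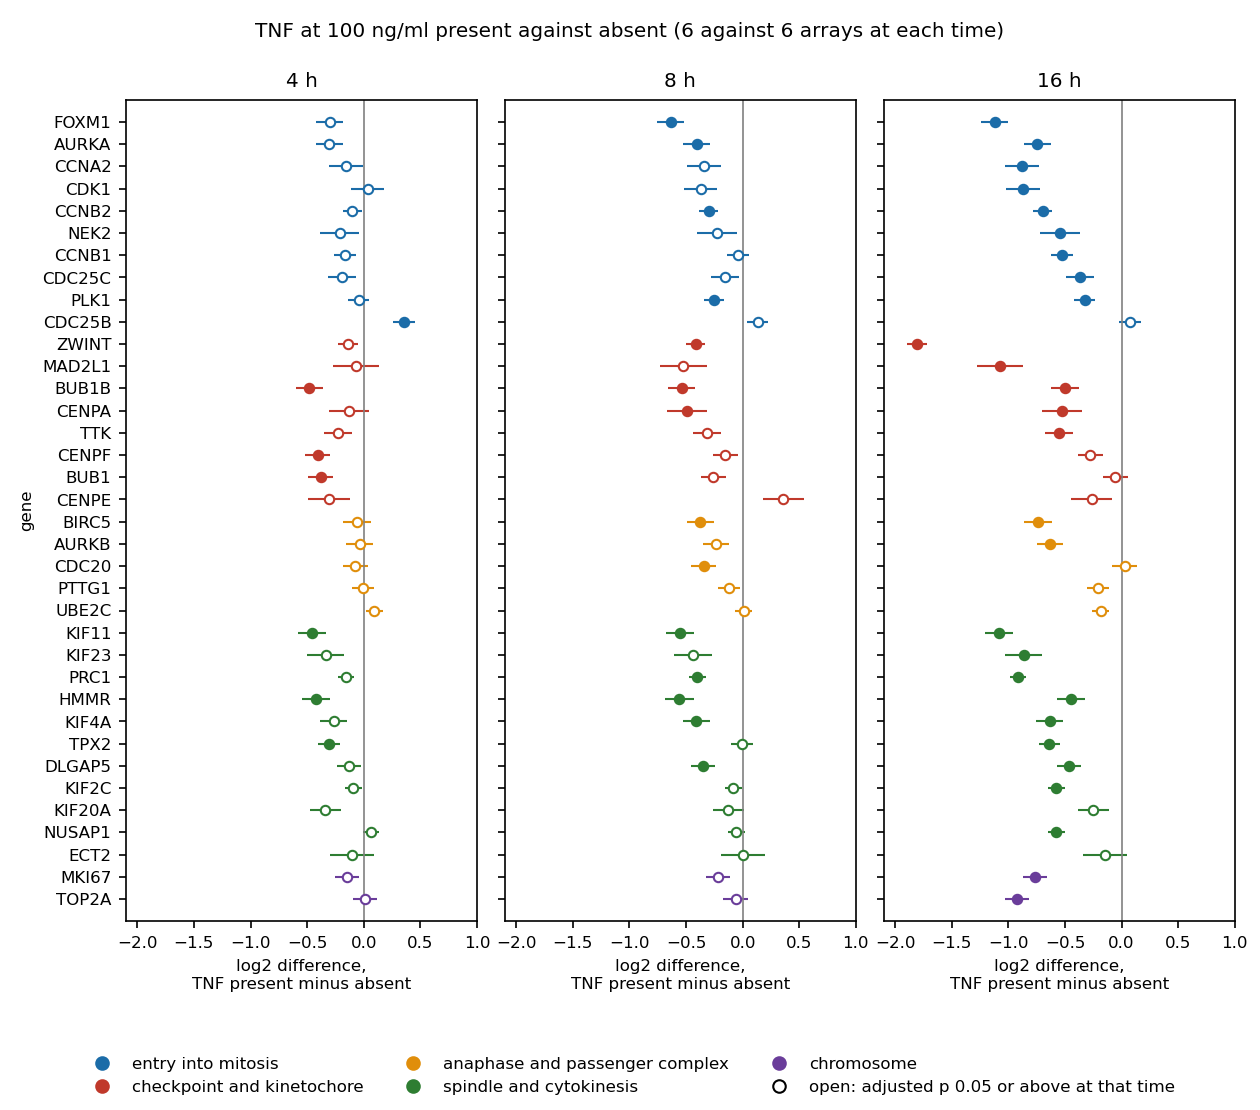
Difference in log2 signal between arrays with TNF at 100 ng/ml and without TNF (horizontal, with SE, 6 arrays each) for each gene (vertical) at 4, 8 and 16 h; filled points had an adjusted p under 0.05 at that time. Most points move left with time, ZWINT farthest, to -1.81. At 16 h those of CDC20 (0.03), BUB1 (-0.06) and CDC25B (0.08) lie nearest 0, and that of UBE2C lies at -0.19.

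Among the 10 genes of mitotic entry 9 fell and CDC25B rose. FOXM1 encodes a forkhead factor that activates late cell cycle genes. Its 16 h signals with TNF at 100 ng/ml were 331 at the lowest, 470 at the median and 690 at the highest, and without TNF 812, 1090 and 1182. The groups did not overlap, and the mean difference was -0.69 (SE 0.07, limma adjusted p = 5.15e-10), reaching -1.12 at 16 h. CCNA2, cyclin A2, partners CDK2 and CDK1. Its 16 h signals were 309, 496 and 652 with TNF and 675, 898 and 1169 without. The ranges stood apart here too, with a mean difference of -0.46 (SE 0.09, limma adjusted p = 4.62e-05). CDK1, the mitotic kinase itself, had 788, 1023 and 1100.1 with TNF and 1409, 1702 and 2652 without. It too was lower in every TNF array at 16 h, yet its 4 h difference was 0.04 and its mean difference -0.40 (SE 0.09, limma adjusted p = 4.13e-05).

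AURKA, the centrosomal Aurora kinase, overlapped between the groups at 16 h. Its signals were 1037, 1093 and 2121 with TNF and 1907, 2107 and 2470.0 without. Both high TNF values came from the cultures that also received insulin, at 2121 and 1657. The mean difference was -0.48 (SE 0.07, limma adjusted p = 2.07e-06). The B cyclins fell by less on average, CCNB1 by 0.24 and CCNB2 by 0.37, but no TNF array reached a TNF-free array at 16 h. CCNB2, for example, ran from 1733 to 2160 with TNF and from 2898 to 3351 without. PLK1, a kinase with roles from entry to cytokinesis, NEK2, a centrosome kinase, and CDC25C, a CDK1-activating phosphatase, fell by 0.21, 0.33 and 0.24. CDC25B, a phosphatase that starts CDK1 activation, rose by 0.19 (SE 0.06, limma adjusted p = 0.0134), mostly at 4 h (0.36).

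Of the 8 checkpoint and kinetochore genes 7 fell. ZWINT encodes the protein that anchors the ZW10 complex at kinetochores. At 16 h its signals were 720.0, 942 and 1037 with TNF and 2496, 3247 and 3973 without. The highest TNF value was far below the lowest without TNF, and the 16 h difference was -1.81. Over all times it was -0.79 (SE 0.05, limma adjusted p = 1.72e-17), with -0.14 at 4 h. MAD2L1, the checkpoint protein that restrains CDC20, had 483, 610.1 and 724 with TNF and 1050.5, 1288 and 1430.4 without. These ranges were also separate, with a mean difference of -0.56 (SE 0.12, limma adjusted p = 0.000153).

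BUB1B, a checkpoint kinase-like protein, differed by much the same at each time (-0.48, -0.54 and -0.50 at 4, 8 and 16 h). Its 16 h signals were 458, 521 and 690 with TNF and 644, 760.3 and 939 without. They overlapped slightly, and the mean difference was -0.51 (SE 0.07, limma adjusted p = 4.76e-06). BUB1, its partner kinase, differed at 4 h (-0.38) and at 16 h by -0.06, for a mean of -0.23. TTK, the kinase that starts checkpoint signalling, CENPA, which marks centromeric chromatin, and CENPF, a kinetochore protein, fell by 0.36, 0.38 and 0.28. CENPE, a kinetochore motor, had a mean difference of -0.07 and did not pass (limma adjusted p = 0.111).

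The 5 genes of anaphase and the chromosomal passenger complex were the least affected, with a median of -0.13. BIRC5 (survivin) and AURKB, both of the passenger complex, fell by 0.39 and 0.30. The other 3, linked to the anaphase-promoting complex, did not pass over the times together. CDC20, its activator, had 16 h signals of 934, 1037 and 1349 with TNF and 810, 976 and 1463 without. These overlapped fully, and the mean difference was -0.13 (SE 0.06, limma adjusted p = 0.0671). At 8 h alone CDC20 was lower, by 0.34 (limma adjusted p = 0.0214). UBE2C, its ubiquitin-conjugating enzyme, had 2441, 2820 and 3286 with TNF and 2974, 3157 and 3807 without. The values overlapped, with a mean difference of -0.03 (SE 0.04, limma adjusted p = 0.151). PTTG1, the securin that the complex destroys, had a difference of -0.11 (SE 0.06, limma adjusted p = 0.251).

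Of the 11 spindle and cytokinesis genes 9 fell. KIF11 is the kinesin that pushes spindle poles apart. It measured 189, 264 and 365 with TNF at 16 h and 518, 531 and 647 without. There was no overlap, and the mean difference was -0.70 (SE 0.07, limma adjusted p = 2.1e-09), from -0.46 at 4 h to -1.08 at 16 h. PRC1, which bundles midzone microtubules, measured 1126, 1226 and 1769 with TNF and 2088, 2427 and 2794 without. It was separated as well, with -0.49 (SE 0.04, limma adjusted p = 1.94e-12). KIF23, a central spindle kinesin, measured 169, 210 and 273 with TNF and 258, 423 and 508 without. Only the edges of these ranges met, and the mean difference was -0.55 (SE 0.10, limma adjusted p = 6.73e-05).

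HMMR, a spindle assembly factor, measured 568, 679 and 765 with TNF at 16 h and 759, 904 and 1224 without. The highest TNF array passed the lowest of the others by a small margin. Its mean difference of -0.48 (SE 0.07, limma adjusted p = 2.04e-05) was reached by 4 h (-0.43). KIF4A, a chromosome-bound kinesin, measured 352, 423 and 699 with TNF and 669, 710.3 and 844 without. The highest TNF array lay above the lowest TNF-free ones, and the mean difference was -0.44 (SE 0.07, limma adjusted p = 1.94e-05). NUSAP1, a microtubule-binding protein of the spindle, and KIF2C, a kinesin that shortens microtubules, fell by 0.19 and 0.25, nearly all of it at 16 h (-0.58 for each). TPX2, which activates AURKA, and DLGAP5, which stabilises kinetochore fibres, both fell by 0.32. KIF20A, a cytokinesis kinesin, and ECT2, the exchange factor that sets the cleavage furrow, had differences of -0.24 and -0.08 and did not pass (limma adjusted p = 0.0658 and 0.903).

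TOP2A, the topoisomerase that separates sister DNA, and MKI67, the Ki-67 coat of mitotic chromosomes, fell by 0.32 and 0.37. For TOP2A the differences at 4, 8 and 16 h were 0.02, -0.06 and -0.92. In all, 13 of the 36 genes were lower in every TNF array than in every TNF-free array at 16 h, beside 8.96% of all probe sets. At 8 h only HMMR and PRC1 were so separated (5.04% of probe sets) and at 4 h only BUB1 and TPX2 (3.65%). None was higher in every TNF array at 16, 8 or 4 h, beside 6.41%, 3.69% and 3.08% of probe sets.

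The split over all probe sets depended on the scaling. With TNF 1688 were higher and 3319 lower, and after median centring 2149 and 2406, when 26 of the 36 genes were lower and 1 higher. Without the 8 h replicate 2 arrays 31 of the 36 genes were called, against 30 with them. Epithelial markers moved in both directions with TNF at 100 ng/ml (VIL1 -1.15, KRT19 -0.38, CEACAM5 0.27, CLDN4 0.21), as did leukocyte markers (ITGAM 1.24, CD14 -0.81). Their part in the result was not tested. The other 18 probe sets of these genes gave no call in the opposite direction in any comparison, and 11 gave the same call here.

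TNF alone was compared with no treatment at each dose. The same untreated arrays serve both comparisons, so their values are given side by side and not as independent. TNF at 100 ng/ml lowered 15 of the 36 genes and raised none, beside 9.66% of all probe sets lower and 6.69% higher. The median was -0.31, against -0.08 over all probe sets. TNF at 5 ng/ml lowered 6 and raised 1, beside 2.55% and 4.26%, with a median of -0.23. In the direct comparison of the doses PRC1 alone was called, with a mean difference below 0 but opposite differences at 8 and 16 h, beside 0.641% of all probe sets called with a negative mean. The median over the list was -0.07.

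**Figure D3:**
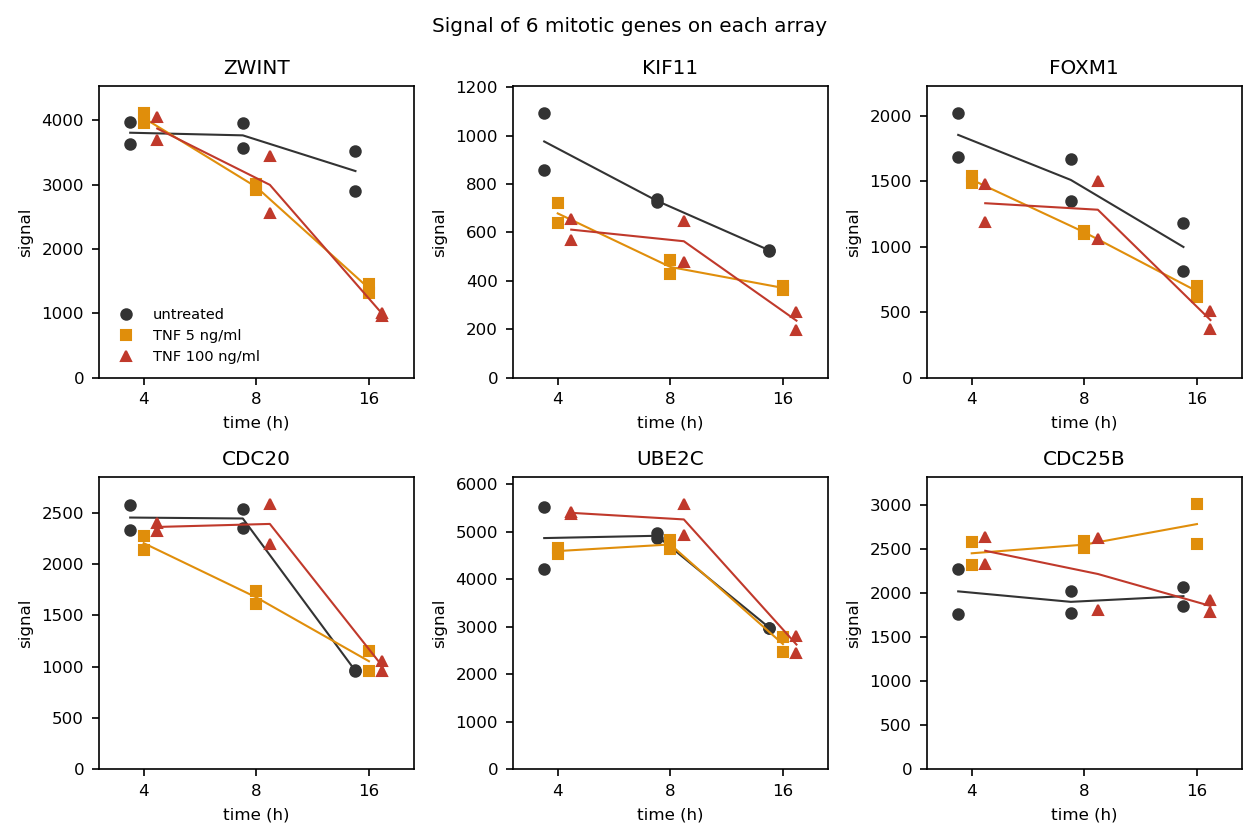
Signal (vertical, linear scale) in each array of untreated cells and of cells with TNF at 5 or 100 ng/ml against time (horizontal, h) for ZWINT, KIF11, FOXM1, CDC20, UBE2C and CDC25B. Lines join the means of 2 arrays. ZWINT stays near its starting signal in untreated cells and ends near 1000 with TNF at 100 ng/ml, whereas CDC20 ends at similar signals in all 3.

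ZWINT had signals of 3634 and 3977 at 4 h in untreated cells, 4120 and 3951 with 5 ng/ml, and 4056 and 3685 with 100 ng/ml. At 8 h the pairs were 3963 and 3567, 3004 and 2918, and 3436 and 2555. At 16 h they were 3517 and 2903, 1454 and 1319, and 1010.1 and 963. The groups were mixed at 4 h and fully ordered by dose at 16 h. Between the doses the 16 h difference was -0.48 and did not pass (limma adjusted p = 0.201). The mean difference from untreated cells was -0.67 (SE 0.09, limma adjusted p = 1.14e-09) at 100 ng/ml and -0.49 (SE 0.09, limma adjusted p = 2.5e-06) at 5 ng/ml.

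KIF11 had 856 and 1095 at 4 h in untreated cells, 637 and 720 with 5 ng/ml, and 568 and 654 with 100 ng/ml. At 16 h the pairs were 522 and 529, 361 and 380, and 198 and 272. Untreated cells were highest at both times. The 8 h means were 730 untreated, 457 with 5 ng/ml and 563 with 100 ng/ml, so the lower dose gave the lower mean then. At 100 ng/ml the mean difference was -0.72 (SE 0.12, limma adjusted p = 0.000128), the largest of the list, and at 5 ng/ml -0.55 (SE 0.12, limma adjusted p = 0.019). FOXM1 had 16 h pairs of 1182 and 812, 616 and 702, and 511 and 367, again ordered by dose without overlap. Its 8 h means were 1509, 1109 and 1281. The 16 h differences between the doses did not pass for KIF11 or FOXM1 (limma adjusted p = 0.267 and 0.310). FOXM1 fell by 0.63 (SE 0.12, limma adjusted p = 0.000195) at 100 ng/ml. At 5 ng/ml its difference of -0.43 did not pass (limma adjusted p = 0.0898).

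PRC1 is the gene called between the doses. Its 8 h signals were 3918 and 3714 untreated, 2408 and 2315 with 5 ng/ml, and 2845 and 3332 with 100 ng/ml. At 16 h they were 2377 and 2088, 1570 and 1813, and 1235 and 1126. The lower dose was thus the lower one at 8 h and the higher one at 16 h, and the mean difference over the times was -0.06 (SE 0.07, limma adjusted p = 0.0217), or 0.013 after median centring. These signs were not particular to PRC1. At 8 and 16 h the differences between doses were 0.28 and -0.64 for KIF11, 0.18 and -0.59 for FOXM1 and 0.65 and -0.40 for AURKA, none of which passed. BUB1 was negative at both times (-0.22 and -0.01). KIF23, BUB1B, AURKA and HMMR also fell at 100 ng/ml, by 0.60, 0.47, 0.47 and 0.42. With 5 ng/ml AURKA fell by 0.49 and CCNB2 by 0.36. CDC25B rose with 5 ng/ml by 0.40 (SE 0.10, limma adjusted p = 0.0333). Its 16 h signals were 2069 and 1854 untreated and 2552 and 3007 with this dose, which did not overlap, while 100 ng/ml gave 1919 and 1783. Of the genes that did not pass at 100 ng/ml the largest differences were in CENPA (-0.50), MAD2L1 (-0.50), CCNA2 (-0.46) and KIF20A (-0.42).

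These counts rest on few arrays. Without the 8 h replicate 2 set 12 genes were called at 100 ng/ml and 3 at 5 ng/ml. Without the 16 h replicate 1 array of TNF at 100 ng/ml 8 genes were called at this dose, and without the untreated 16 h replicate 2 array 9, but KIF11, ZWINT, FOXM1 and PRC1 passed with any 1 array left out. For 5 ng/ml the count was 3 without the 8 h replicate 1 array of that dose, 4 without its 16 h replicate 2 array, and 4 without the untreated 8 h replicate 1, 8 h replicate 2 or 16 h replicate 1 array. The PRC1 call between doses was lost without replicate 2 of either dose at 8 or 16 h, and 3 genes were called between doses when the 8 h replicate number was a block. Over all probe sets the split with 100 ng/ml was 898 higher and 1296 lower, and 1050.0 and 805 after median centring, when 8 of the genes were lower. Between doses it was 84 and 86, and 127 and 58 after median centring.

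EGF and insulin changed few genes of the list. EGF at 100 ng/ml alone changed none of the 36 genes by limma at an adjusted p under 0.05 (0.596% of all probe sets were called), with 4 at an unadjusted p under 0.05 (783 of 13422 probe sets) and a median of -0.01. Insulin at 500 ng/ml alone changed none by limma (0.231% of probe sets), with 3 at an unadjusted p under 0.05 (771 of 13422) and a median of 0.04. The largest difference with insulin was in MKI67 (0.32, SE 0.11, limma adjusted p = 0.271). EGF added to TNF at 100 ng/ml changed none (0.224% of probe sets), with 1 gene at an unadjusted p under 0.05 by limma (618 of 13422 probe sets). Low EGF or low insulin on top of the low TNF dose changed none by limma (0% of probe sets for each), with 1 and 0 at an unadjusted p under 0.05 (560 and 279 of 13422 probe sets). Neither interaction term with TNF at 100 ng/ml called a gene of the list by limma (0.0298% of probe sets for EGF, 0.00745% for insulin), with 2 and 1 at an unadjusted p under 0.05 (358 and 706 of 13422).

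Insulin added to TNF at 100 ng/ml raised CDC25B alone, beside 0.41% of all probe sets, with 11 of the 36 genes and 1083 of 13422 probe sets at an unadjusted p under 0.05. At 16 h CDC25B had 3639 and 3733 with both factors, 1919 and 1783 with TNF alone, 2496 and 2483 with insulin alone and 2069 and 1854 untreated. The pair with both factors was the highest of these 4 groups. The mean difference was 0.32 (SE 0.10, limma adjusted p = 0.0067) and the 16 h difference 0.99 (SE 0.17, limma adjusted p = 0.00351). EGF added to TNF gave 1744 and 2107, near the signals with TNF alone. The CDC25B call was lost without either 16 h array that had both factors and without the 16 h replicate 2 array of TNF alone. A second gene was called when the 8 h replicate number was a block and without the 8 h replicate 2 array that had both factors.

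The genes also fell with time. Averaged over the 9 treatments, 34 of the 36 fell and CDC25B rose between 4 and 16 h, beside 30.9% of all probe sets lower and 31.6% higher. The median 16 h minus 4 h change was -0.69, against 0.01 over all probe sets, and the 8 h minus 4 h change was -0.11. CCNA2 fell most, by 1.52 (SE 0.09). It was 309 at the lowest, 566 at the median and 1169 at the highest in the 18 arrays at 16 h, and 1376, 1713 and 2348 in the 18 arrays at 4 h. No 16 h array reached a 4 h array. MAD2L1 fell by 1.35 (SE 0.12), from 1358, 2306 and 3088 to 483, 735 and 1430.4, with slight overlap. ZWINT fell by 1.33 (SE 0.05), but its 16 h signals ran from 720.0 to 3973 and overlapped the 4 h range of 3074 to 4461. CDC20 fell by 1.17 (SE 0.06), from 1896, 2329 and 3058 to 810, 1006 and 1463, with no overlap. In all, 8 genes (AURKA, CCNA2, CCNB1, CCNB2, CDC20, PLK1, PRC1 and UBE2C) had every 16 h array below every 4 h array, beside 1.85% of all probe sets. CENPE had a change of -0.02 (SE 0.11, limma adjusted p = 0.775), and CDC25B rose by 0.20 (SE 0.06, limma adjusted p = 0.00541).

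In untreated cells 18 genes fell over time and none rose, beside 3.89% of all probe sets lower and 5.7% higher, with a median change of -0.58. From 4 to 8 h the median change was -0.06. CDC20 led, falling by 1.34 (SE 0.19, limma adjusted p = 1.63e-06). Its signals were 2574 and 2334 at 4 h, 2534 and 2356 at 8 h and 962 and 953 at 16 h, so the drop lay between 8 and 16 h. DLGAP5 fell by 1.20 (SE 0.18), from 835 and 1124 at 4 h to 390.1 and 439 at 16 h. CCNA2 and AURKA fell by 1.14 and 1.01, and PTTG1 and UBE2C, which TNF left without a call, by 0.82 and 0.69. UBE2C went from 5515 and 4221 to 2974 and 2980.3, a fall larger than the gap between either pair of duplicates. ZWINT changed by -0.25 and did not pass (limma adjusted p = 0.514). BIRC5 is counted among the 18 only by the sign of its 16 h minus 4 h change. It passed the test over both later times with 0.65 at 8 h and -0.09 at 16 h relative to 4 h. On the 16 h minus 4 h contrast alone BIRC5 did not pass (limma adjusted p = 0.880).

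Under TNF at 100 ng/ml 29 genes fell over time and none rose, beside 10.6% of all probe sets lower and 11.7% higher, with a median of -0.95. ZWINT led here, falling by 1.96 (SE 0.15, limma adjusted p = 7.47e-12), then CCNA2 by 1.80, AURKA by 1.60 and FOXM1 by 1.58. CDC20 fell by 1.23, from 2323 and 2401 at 4 h to 1053 and 953 at 16 h, close to the signals of untreated cells at the same times. BUB1, CDC25B, CENPA, CENPE, ECT2, HMMR and NEK2 did not pass. CDC25C and CENPF, counted among the 29 by their sign at 16 h, passed the test over both later times. They had 0.51 and 0.35 at 8 h and -0.47 and -0.36 at 16 h relative to 4 h. On the 16 h minus 4 h contrast alone neither passed (limma adjusted p = 0.119 and 0.198). The untreated count fell to 10 without the 16 h replicate 1 array and to 9 without replicate 2.

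**Figure D4:**
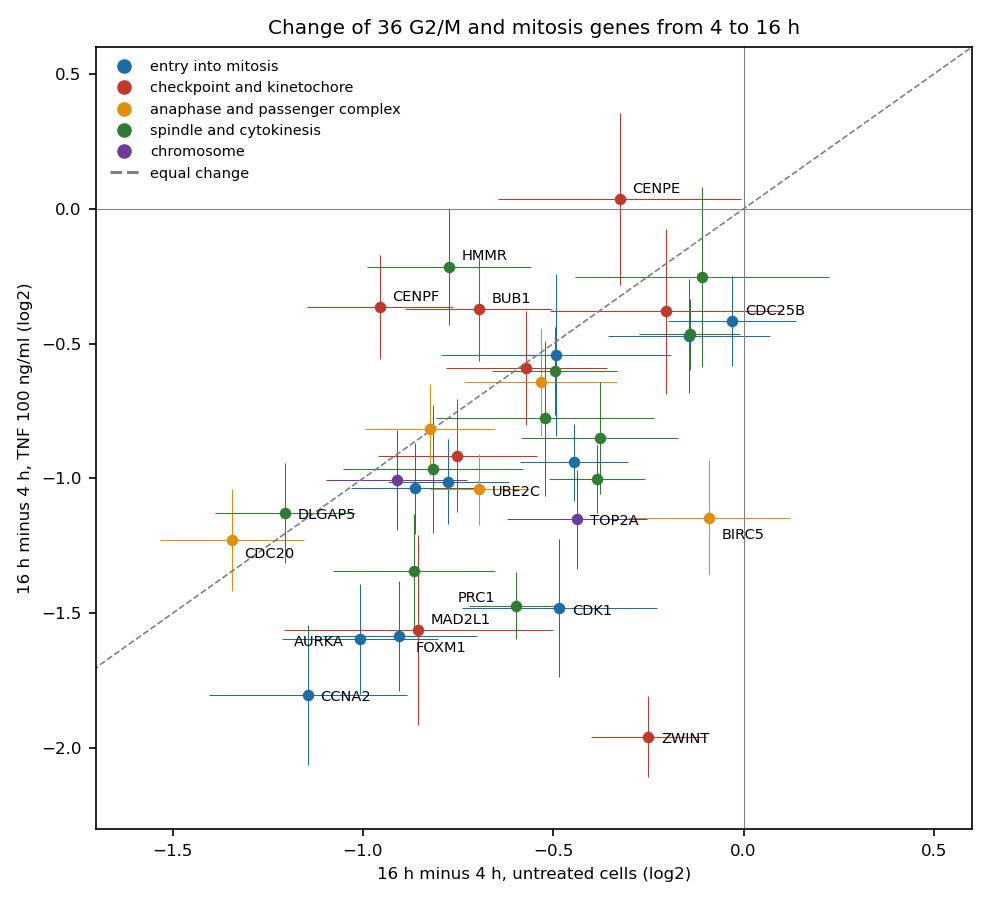
Change in log2 signal from 4 to 16 h in untreated cells (horizontal) and with TNF at 100 ng/ml (vertical) for the 36 genes, with SE; the dashed line marks equal change. CDC20 and DLGAP5 lie close to the line, while ZWINT lies farthest below it, at -0.25 untreated and -1.96 with TNF.

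Whether the time courses differed was tested directly. For TNF at 100 ng/ml minus untreated 2 genes differed, both with the more negative 16 h minus 4 h change under TNF, beside 1.13% of all probe sets. They were ZWINT (-1.71, SE 0.21, limma adjusted p = 2.62e-06) and PRC1 (-0.87, SE 0.18, limma adjusted p = 0.0068). The count was 4 without the 8 h replicate 1 array of TNF, and 1 without the untreated 16 h replicate 1 array or the TNF 16 h replicate 2 array. The same difference over all 3 backgrounds, a comparison added after these results were seen, called 16 genes, all with the more negative 16 h minus 4 h change under TNF, beside 6.23% of all probe sets. Its median was -0.37, against -0.02 over all probe sets. ZWINT (-1.67), MAD2L1 (-1.01), TOP2A (-0.94), CDK1 (-0.91) and FOXM1 (-0.82) had the largest differences. BUB1B (-0.02, SE 0.17), HMMR (-0.03, SE 0.18), CENPE (0.04, SE 0.26) and ECT2 (-0.04, SE 0.27) were closest to equal change from 4 to 16 h and did not pass. For CENPE the difference in the change from 4 to 8 h was 0.67 (SE 0.26), and on that contrast alone it did not pass (limma adjusted p = 0.238). For CDC20 the difference was 0.10 (SE 0.15) and did not pass either.

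Other cell cycle genes were counted in the same way. Of 63 other G2/M genes measured, 49 fell with TNF at 100 ng/ml present and none rose, with a median of -0.42. Beside them 24.7% of all probe sets were called lower and 12.6% higher. KIF18B, a kinesin that shortens microtubules, fell by 0.88, FBXO5, an inhibitor of the anaphase-promoting complex, by 0.82, PBK, a mitotic kinase, by 0.79, and WEE1, the kinase that inhibits CDK1, by 0.76. Of 40 G1/S and DNA replication genes all 40 fell, with a median of -0.83, beside the same 24.7%. With TNF at 100 ng/ml alone 33 fell and with 5 ng/ml 28, beside 9.66% and 2.55% of all probe sets. GINS2 and MCM5, parts of the replicative helicase, fell by 1.51 and 1.28, CDC25A, the phosphatase of the G1/S step, by 1.41 and UNG, a DNA repair glycosylase, by 1.29. At 8 h their median was -0.86, beside -0.28 for the 36 genes. The difference between the lists was not tested.

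Among 22 measured regulators 11 fell and 1 rose with TNF present, beside 24.7% and 12.6% of all probe sets. CDKN1A, which encodes the CDK inhibitor p21, rose by 1.83 (SE 0.11, limma adjusted p = 8.65e-15). It also rose with EGF alone by 1.15 (limma adjusted p = 2.44e-05) and with insulin alone by 0.80 (limma adjusted p = 0.0212). None of the 36 genes was called with either factor alone. Over time in untreated cells CDKN1A rose by 2.71 (limma adjusted p = 8.81e-07). Its course over time with TNF is not described here, and its part in the falls of the 36 genes was not tested. GADD45A, a stress gene that can restrain CDK1, fell by 1.32, CHEK1, a checkpoint kinase, by 0.73, and NFYB, a subunit of NF-Y, by 0.68. E2F1, counted with the G1/S genes, fell by 0.99 and MYBL2, the MuvB partner of late cell cycle genes, by 0.68. MYC, a growth regulator, had a difference of 0.05 and did not pass (limma adjusted p = 0.0908).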

How the data were processed

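Total RNA of 54 HT-29 cultures, 27 groups of 2, was hybridised to Affymetrix arrays. The deposited intensity values are linear MAS5 signals, per the submitters' processing notes, and since every array had the same trimmed mean, 500.2 with 2% cut from either end, none was rescaled. How the authors chose the scaling target is not given in the sources used here. The 68 control probe sets among 22283 were dropped. An offset of 12.49, the 10th percentile, was added before log2, and 13422 probe sets were kept whose mean reached the overall median of 7.24 in at least 1 group. In the platform annotation 19065 probe sets had 1 symbol, 1043 had several and 2107 had none, and each gene is described by its brightest probe set with 1 symbol.

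The model, limma 3.58.1 (R 4.3.3) on all arrays, had a mean per group, 27 residual degrees of freedom and variances moderated with an intensity trend. A moderated F test joined each comparison's differences at 4, 8 and 16 h, with the direction of their mean, or over 8 minus 4 h and 16 minus 4 h, with the direction of 16 minus 4 h. Benjamini-Hochberg adjustment ran over the 13422 probe sets, at 0.05. The members, lists and rules were chosen with earlier results of these data known. Values are given for up to 8 called genes of largest change in each comparison and up to 4 that did not pass, and by array for up to 12, with genes of each role added in the order of the text. Within 8 h same-numbered arrays had residuals correlated above 0.1 in 36 of 36 pairs of groups (median 0.43), so the number was taken to pair arrays there. Within 4 h 27 of 36 pairs and within 16 h 31 of 36 did (medians 0.20 and 0.21), so it was not taken to pair them at those times. That was a choice. The lowest correlations there were -0.006 and 0.009, so the number may pair arrays at 4 and 16 h too. Counts that moved with a block within each time are given at the end. The main fit had no replicate block at any time, 8 h included. The pairing entered only the alternatives with replicate blocks. Alternatives were another offset, no filter, quantile normalization, median centring, replicate blocks, fewer arrays or treatments, and the mean of a gene's probe sets.

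On simulated data with 200 of 13422 probe sets changed, the fit recovered 16%, 76% and 92% of changes of 0.5, 1 and 2 (log2) for TNF at 100 ng/ml against untreated, and 65%, 96% and 100% for TNF present against absent. Promoters came from RefSeq (GRCh38.p14).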

Additional observations from a re-analysis of the deposited data

Results flagged for a closer look

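The time course differed between cells with and without TNF at 100 ng/ml for the genes below, by limma's test of the difference in the changes from 4 to 8 h and from 4 to 16 h together. The values are differences in the 16 h minus 4 h change, which was more negative with TNF in each. Against untreated cells the difference was -1.71 for ZWINT (adjusted p = 2.62e-06) and -0.87 for PRC1 (adjusted p = 0.0068). Over the 3 backgrounds it was -1.67 for ZWINT (adjusted p = 2.35e-12), -0.76 for PRC1 (4.12e-06), -0.94 for TOP2A (2.07e-05) and -0.64 for NUSAP1 (4.56e-05). For genes of mitotic entry it was -0.91 for CDK1 (adjusted p = 0.00811), -0.82 for FOXM1 (0.00212), -0.72 for CCNA2 (0.0413), -0.60 for CCNB2 (0.00102) and -0.37 for CCNB1 (0.0311). For the spindle genes KIF11, KIF2C and TPX2 it was -0.63 (adjusted p = 0.0223), -0.49 (0.00108) and -0.33 (0.00355). MAD2L1 differed by -1.01 (adjusted p = 0.0451), BIRC5 by -0.68 (0.02), MKI67 by -0.62 (0.00631) and AURKB by -0.59 (0.0318). On the 16 h minus 4 h contrast alone CCNB1 (adjusted p = 0.0776) and TPX2 (adjusted p = 0.105) did not pass. The comparison over the 3 backgrounds was added after the data were seen. The ACTB ratio of the 8 h replicate 2 arrays does not enter the 16 h minus 4 h values, and without those arrays 13 genes were called over the 3 backgrounds, where 16 had been. The 16 h replicate 2 arrays, with log2 ratios of 0.02 to 0.43, do enter these values, and the part of the ratio in them was not tested.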

How the results depend on the processing

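Counts of called genes that moved by more than 1.5 times are given here, and the cause was not tested. For TNF at 100 ng/ml against untreated the count of 15 became 8 with median centring, 23 with the replicate number as a block within each time and 5 when only the treatments compared were fitted, which leaves fewer arrays for the spread; at 16 h, 14 became 8 in that fit. For TNF at 5 ng/ml 7 became 13 with the block within each time, 3 without the 8 h replicate 2 arrays and 2 with only the treatments compared. Between doses 1 became 3 with the block within each time or at 8 h only, and 0 without the 8 h replicate 2 arrays or with only the treatments compared. For insulin added to TNF at 100 ng/ml 1 became 2 with the block within each time, over all times or at 8 h only and without the 8 h replicate 2 arrays, and 0 with only the treatments compared. Over time in untreated cells 18 became 4 with only the treatments compared. For the difference of time courses 2 became 8 with the block within each time and 1 with only the treatments compared. The block moved no other count by over 1.5 times. Where the sign turned, the PRC1 difference between doses was 0.013 with median centring, and the BIRC5 change in untreated cells ranged from -0.49 to 0.31 with 1 array left out, the latter without the untreated 4 h replicate 1 array. Leaving out 1 array at a time gave 8 to 16 genes for TNF at 100 ng/ml, 8 to 15 at 16 h, 3 to 7 for 5 ng/ml, 0 to 1 between doses, 28 to 31 for TNF present against absent and 25 to 28 at 16 h. It gave 0 to 2 for insulin added to TNF, 9 to 20 over time in untreated cells, 23 to 30 with TNF, 34 to 35 over all treatments, 1 to 4 for the difference of time courses and 11 to 17 for that over 3 backgrounds. Groups of 2 arrays limit the precision of every comparison.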
